A study of Mus musculus with 6 samples.

Results

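Cadherins, claudins, desmosomal proteins and tight junction proteins were examined in mouse kidney tubular cells in which Glis2 had been knocked down. The genes were chosen by symbol alone: numbered cadherins (Cdh), claudins (Cldn), desmogleins (Dsg), desmocollins (Dsc), zonula occludens proteins (Tjp) and plakophilins (Pkp), together with further junction genes listed by name. In all, 77 of the 19057 genes measured were members; of those listed by name, Dsp was not analysed here. They comprised 23 cadherins, 2 catenins, 24 claudins, 7 other tight junction membrane proteins, 4 tight junction plaque proteins, 9 desmosomal cadherins, 5 desmosomal plaque proteins, 2 connexins and Epcam.

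RNA came from immortalized proximal tubular cells, whose strain background the labels give as C56BL/6. The Glis2 knockdown group (3 arrays) stably carried a short hairpin RNA against Glis2, and the control group (3 arrays) carried one against GFP. Harvest was 7 days after infection with lentivirus, and RNA was measured on Illumina mouse bead arrays. The labels name no separate infections or cultures for the samples of a group, so p-values cover the spread between these samples alone, and that spread may be technical. What the loss of Glis2 does cannot be told apart from anything else that differs between the populations infected with each hairpin.

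Epithelial cells are held together by several kinds of junction. In adherens junctions, classical cadherins bind each other between neighbouring cells and are tied to actin through catenins. In tight junctions, claudins seal the space between cells or form pores for particular ions, and plaque proteins anchor them to the cytoskeleton. Desmosomes join keratin filaments through desmogleins, desmocollins, plakoglobin and plakophilins, and gap junctions pass small molecules through connexin channels. The proximal tubule is a leaky epithelium, and claudin-2 forms its paracellular cation pore.

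Each gene is given by its brightest probe, as a linear intensity that includes background. The background limit was an intensity of 139, which is the most frequent value of the arrays plus 3 times its estimated SD. On each array 39.5% to 39.6% of all probes lay above that limit. Different probes have different brightness, so levels are compared between groups and not between genes. Glis2 itself read 169, 161 and 176 in knockdown and 278, 234 and 230 in control cells, with a log2 fold change of -0.55 ± 0.092 (SE). The marker check of the cells was mixed: 7 of 9 general epithelial markers lay above the limit, but 2 of 10 measured proximal tubule markers did. Those were Aqp1 and Mme. The markers Slc34a1, Slc5a2, Slc22a6, Slc22a8, Lrp2, Cubn, Anpep and Hnf4a were not above it.

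Junction genes differed in both directions between knockdown and control cells. By limma, with p-values adjusted by Benjamini-Hochberg over all genes and a threshold of 0.05, 8 of the 77 rose and 10 fell. Of all genes, 11.2% were called higher, 11.4% lower and 22.5% either way, so the members' total of 23.4% was near the background. Their median log2 fold change was -0.003, against 0.004 over all genes. Of the 32 members whose mean lay above the limit, 17 were called, where the share over all such genes was 43.8%; 3 of the 32, Cdh16, Cdh2 and Cldn2, had knockdown means under the limit and passed through their control arrays. The knockdown and control arrays did not overlap in 22 members, where 32.3% of all genes showed this, and in 19 of those above the limit, where the share over such genes was 52.8%. In bulk RNA, fewer cells that express a gene and less RNA per cell cannot be told apart.

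**Figure D1:**
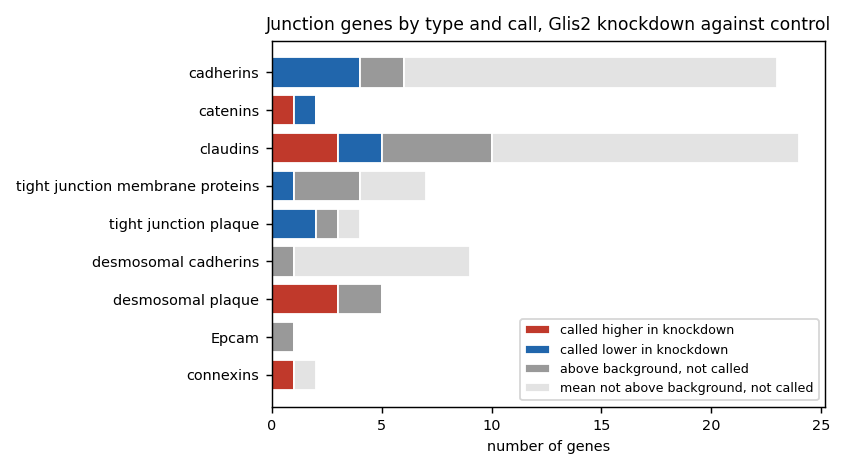
Number of genes (x axis) of each junction type (rows) that limma called higher or lower in Glis2 knockdown against control, were above background but not called, or were not above background and not called. All 3 called desmosomal plaque genes were higher, all 4 called cadherins were lower, and the claudins held 3 higher and 2 lower. Over all genes, 22.5% were called.

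Among the claudins, Cldn2 and Cldn1 fell and Cldn12, Cldn23 and Cldn9 rose. The RefSeq promoters of Cldn2 and Cldn1, the claudins that fell, are shown beside one of Tjp3, a tight junction plaque gene that also fell. Among the called members with a promoter entry, Tjp3 alone holds the E-box described here. Cdh1, Cdh16, Cxadr, Cldn23 and other called members had no entry and could not be checked. Each stretch is 300 bases of build GRCm38.p6, from 250 bases before to 50 bases after a start site, written 5′ to 3′ on the gene's strand. Capitals mark the E-box CAGGTG or its reverse CACCTG, which the repressors Snail and Zeb bind in the E-cadherin promoter.
Cldn2 (chrX:139800558-139800857, plus strand): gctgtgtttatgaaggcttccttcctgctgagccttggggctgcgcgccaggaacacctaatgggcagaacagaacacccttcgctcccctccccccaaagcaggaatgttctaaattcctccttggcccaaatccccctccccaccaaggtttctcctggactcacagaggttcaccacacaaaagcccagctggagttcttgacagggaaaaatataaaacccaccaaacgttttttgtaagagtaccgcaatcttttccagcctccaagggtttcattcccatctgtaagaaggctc
Cldn1 (chr16:26371790-26372089, minus strand): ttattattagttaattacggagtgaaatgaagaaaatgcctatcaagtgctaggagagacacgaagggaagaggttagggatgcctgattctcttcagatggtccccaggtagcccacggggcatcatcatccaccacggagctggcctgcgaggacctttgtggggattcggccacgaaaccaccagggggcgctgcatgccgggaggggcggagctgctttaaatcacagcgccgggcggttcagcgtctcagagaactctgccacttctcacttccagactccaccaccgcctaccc
Tjp3 (chr10:81291218-81291517, minus strand): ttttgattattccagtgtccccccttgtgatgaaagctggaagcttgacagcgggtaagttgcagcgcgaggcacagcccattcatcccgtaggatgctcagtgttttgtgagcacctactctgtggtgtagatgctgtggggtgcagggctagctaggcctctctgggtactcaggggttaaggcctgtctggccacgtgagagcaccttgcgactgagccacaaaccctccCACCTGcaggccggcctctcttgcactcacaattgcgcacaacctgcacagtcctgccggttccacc
The Tjp3 match shown begins at position -17 relative to the start site, and the Cldn2 and Cldn1 windows hold none of these letters. Another Tjp3 entry, not shown, holds a match at -108. Of the 32 members above the limit, 18 had a promoter in the table, and the E-box stood on either strand in 9 of them (50%), against 22.6% of the 27025 genes in the table. Those 9 were Cldn3, Cldn4, Cldn6, Cldn7, Epcam, F11r, Ocln, Pkp4 and Tjp3, of which Tjp3 alone was called. The consensus site of the Gli factors, TGGGTGGTC, was in 0 of the 18 and in 0.289% of all genes. A match is a description of the sequence and does not show that a factor binds there.

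Cldn2, the pore-forming claudin of the proximal tubule, read 105, 104 and 113 in knockdown cells, against 448, 418 and 311 in control cells. All 3 knockdown arrays were under the background limit and all 3 control arrays above it. It was at least 2.79-fold lower in the knockdown, with limma's adjusted p = 3.35e-12. Its second probe gave the same picture, at 115 ± 7.14 in knockdown and 346 ± 27.2 in control cells (SD, n = 3 arrays each). Cldn2 lies on the X chromosome, where its 50 nearest genes above background had a median log2 fold change of -0.03.

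Cldn1, a sealing claudin, read 1440, 1436 and 1274 in knockdown cells, against 2753, 3556 and 3025 in control cells. The lowest control array was above every knockdown array by a wide margin, and the mean fell by 55.5%. Its log2 fold change was -1.16 ± 0.098 (SE), and the neighbouring genes had a median of 0.01.

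Cldn23, another claudin that rose, read 1046, 813 and 919 in knockdown cells, against 486, 525 and 467 in control cells. The log2 fold change was 0.90 ± 0.097 (SE), and limma's adjusted p = 1.00e-07. Its knockdown arrays spread more widely than its control arrays, and the groups did not overlap. Cldn9 read 333, 286 and 288 in knockdown cells, against 193, 184 and 181 in control cells, with a log2 fold change of 0.70 ± 0.089. With background subtracted, the fold changes were 1.38 for Cldn9 and 1.09 for Cldn23 on the log2 scale, so their order depended on the background. Cldn12, a claudin that lacks the usual end that binds PDZ domains, read 5828, 6137 and 5667 in knockdown cells, against 4066, 4347 and 4358 in control cells. Its log2 fold change was 0.47 ± 0.086 (SE), with limma's adjusted p = 0.00018.

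Cldn3, Cldn4, Cldn6, Cldn7 and Cldn15 were not called. Cldn3, a sealing claudin, read 9839 ± 357 in knockdown and 9550 ± 317 in control cells (SD, n = 3). The 95% interval of its log2 fold change ran from -0.13 to 0.22. Cldn4 read 19914 ± 291 in knockdown and 20504 ± 1104 in control cells, with an interval from -0.22 to 0.14. Cldn3 and Cldn4 are neighbours on chromosome 5, in a stretch where the 50 nearest genes had median log2 fold changes of 0.26 and 0.24. Cldn6, a claudin of embryonic epithelia, read 32499 ± 1626 in knockdown and 34608 ± 2437 in control cells, with an interval from -0.27 to 0.09. Cldn9, which rose, is its neighbour on chromosome 17. Cldn7 had an interval from -0.11 to 0.35 and Cldn15, which lay close to the limit, one from -0.17 to 0.22. In a further fit the median log2 level of the 50 neighbours was taken off each array. That level can shift by another amount than the neighbours' median fold change. Cldn3 was then at -0.39, Cldn4 at -0.46 and Cldn7 at 0.48, and limma called all 3.

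**Figure D2:**
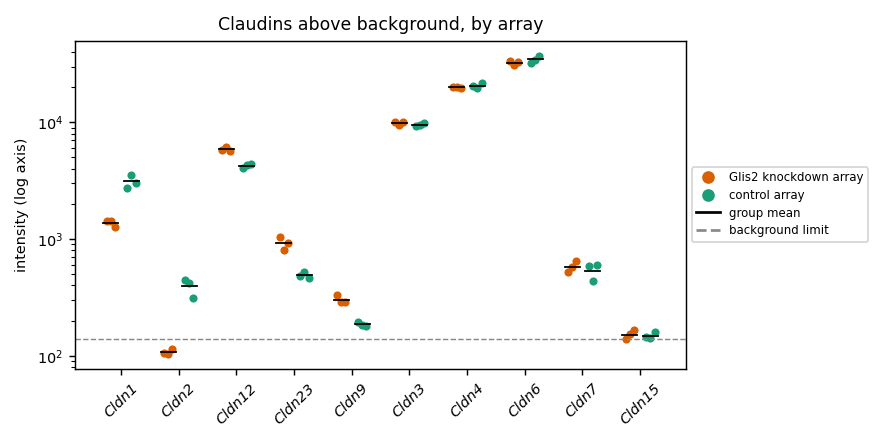
Intensity (log axis) of the 10 claudins above background on each Glis2 knockdown array (left of each pair) and control array (right), with group means as bars and the background limit dashed. Cldn2 sits at 104 to 113 in knockdown and 311 to 448 in control arrays, while the groups of Cldn3, Cldn4 and Cldn6 overlap.

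The other 14 claudins were not above the limit and 0 were called by limma (1 had an unadjusted p under 0.05). Among them were Cldn16 and Cldn19, which are claudins of the thick ascending limb, and Cldn5 of endothelium. The others were Cldn8, Cldn10, Cldn11, Cldn13, Cldn14, Cldn17, Cldn18, Cldn34b2, Cldn34b3, Cldn34b4 and Cldn34c1.

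Of the remaining tight junction membrane proteins, only Cxadr was called. Cxadr, the coxsackievirus and adenovirus receptor, is a cell adhesion protein of tight junctions. It read 3764, 3690 and 3499 in knockdown cells, against 5867, 6311 and 4961 in control cells, and the groups did not overlap. On the log2 scale the change was -0.64 ± 0.095 (SE), and limma's adjusted p = 1.21e-05. Its second probe also gave -0.64 and was called, and a dimmer probe gave -0.21 and was not.

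Occludin, Ocln, the first tight junction membrane protein described, read 395, 377 and 389 in knockdown cells, against 415, 396 and 360 in control cells. These groups overlapped, and the 95% interval of the log2 fold change ran from -0.19 to 0.17. Marveld3, a relative of occludin, had an interval from -0.27 to 0.14. F11r, which encodes the junctional adhesion molecule JAM-A, read 733, 686 and 802 in knockdown cells, against 827, 919 and 823 in control cells. All its knockdown arrays lay below all control arrays, but the log2 fold change of -0.21 was not called (limma's adjusted p = 0.109). Jam2, Jam3 and Marveld2, which encodes tricellulin, were not above the limit.

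In the tight junction plaque, Cgnl1 and Tjp3 fell and Tjp1 was not called. Cgnl1, which encodes paracingulin, read 2213, 2178 and 2733 in knockdown cells, against 3576, 4277 and 4305 in control cells. On the log2 scale Cgnl1 changed by -0.77 ± 0.101 (SE), with limma's adjusted p = 2.23e-06. A dimmer second probe of Cgnl1 gave -0.22 and was not called. Tjp3, which encodes ZO-3, read 170, 143 and 156 in knockdown cells, against 265, 201 and 231 in control cells, a log2 fold change of -0.57 ± 0.101. Its second probe gave -0.15 and was not called, and with background subtracted the fold change was -1.50 but was not called (limma's adjusted p = 0.0664). The neighbours of Tjp3 on chromosome 10 were mostly higher, with a median log2 fold change of 0.32. Tjp1, which encodes the scaffold ZO-1, read 949 ± 55.5 in knockdown and 901 ± 106 in control cells (SD, n = 3), with a 95% interval from -0.12 to 0.28. Cgn, which encodes cingulin, was not above the limit.

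Of the 23 cadherins 4 were called, or 17.4% beside 22.5% of all genes, and those 4 were lower. Background subtraction left 1 of these calls. Cdh16, the kidney-specific cadherin of tubular epithelia, read 148, 131 and 132 in knockdown cells, against 412, 368 and 317 in control cells. It lay under the limit on 2 knockdown arrays and above it on every control array. Limma fitted -1.41 ± 0.098 (SE) on the log2 scale with background included, and -3.49 with background subtracted and values under 16 set to 16. With 1 knockdown array above the limit, these fitted values give the direction and are not a measured fold. Cdh1, E-cadherin, the main cadherin of epithelial adherens junctions, read 2875, 2773 and 3509 in knockdown cells, against 3951, 3869 and 4061 in control cells. Knockdown replicate 3 lay nearer the control arrays than the other two, but the groups did not overlap. For Cdh1 the log2 fold change was -0.38 ± 0.095 (SE), with limma's adjusted p = 0.00357. It was not called with background subtracted (limma's adjusted p = 0.0967) or after normexp correction (0.106), where fewer genes in all were called. Over all settings its log2 fold change ran from -0.49 to -0.16, the latter for its dimmer second probe.

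Cdh2, N-cadherin, which is the classical cadherin of proximal tubules and of mesenchymal cells, was also lower. It read 142, 146 and 110 in knockdown cells, against 158, 185 and 186 in control cells. The log2 fold change of -0.42 ± 0.105 (SE) was called (limma's adjusted p = 0.00427). Without knockdown replicate 3 limma's adjusted p was 0.0561. With background subtracted the log2 fold change was -1.31 and was not called (limma's adjusted p = 0.108). A second probe, under the limit, had a log2 fold change of 0.07, opposite in sign (limma's adjusted p = 0.764). Cdh17, the relative of Cdh16 known from liver and intestine, was the only member called without a mean above the limit. It read 105, 114 and 116 in knockdown cells, against 144, 153 and 131 in control cells, and was at least 1.02-fold lower; background subtraction ended this call (limma's adjusted p = 0.283).

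Cdh3, P-cadherin, and Cdh13, T-cadherin, which is held in the membrane by a lipid anchor, were not called. Cdh3 read 970 ± 124 in knockdown and 1097 ± 49.8 in control cells (SD, n = 3), with a 95% interval of the log2 fold change from -0.38 to 0.02. Cdh13 had an interval from -0.26 to 0.12, although one of its dimmer probes was called lower at -0.28. The remaining 17 cadherins were neither above the limit nor called. They included Cdh6, a cadherin of the developing proximal tubule, Cdh5 of endothelium and Cdh11 of mesenchymal cells.

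**Figure D3:**
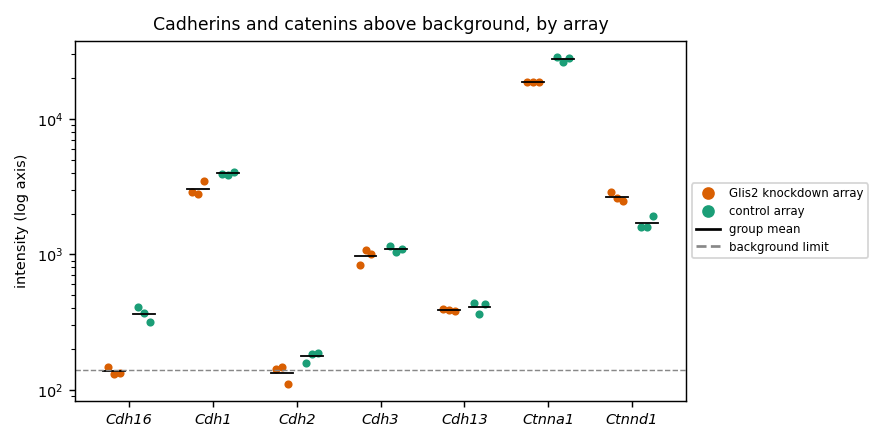
Intensity (log axis) of the cadherins above background and of both catenins on each Glis2 knockdown array (left of each pair) and control array (right), with group means as bars and the background limit dashed. Cdh16 falls to the limit in the knockdown, Ctnna1 lies at 18689 to 18907 against 26235 to 28665 in control, and Ctnnd1 is higher in the knockdown.

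The catenins moved in opposite directions. Ctnna1, alpha-catenin, which links the cadherin complex to actin, read 18730, 18689 and 18907 in knockdown cells, against 28665, 26235 and 28090 in control cells. The knockdown arrays were tightly grouped and their mean fell by 32.1%, with a log2 fold change of -0.56 ± 0.085 (SE) and limma's adjusted p = 1.70e-05. Ctnnd1, p120-catenin, which holds cadherins at the cell surface, read 2904, 2623 and 2465 in knockdown cells, against 1581, 1587 and 1928 in control cells. Its log2 fold change was 0.65 ± 0.097 (SE), with limma's adjusted p = 1.22e-05. The gene rests on 1 probe, since its 3 other probes were under the limit; with the mean of its probes it was not called (0.217).

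In desmosomes, the plakophilins Pkp1, Pkp2 and Pkp3 rose. Plakophilins are armadillo proteins that gather desmosomal cadherins and desmoplakin in the plaque. Pkp1 read 1479, 1454 and 1205 in knockdown cells, against 944, 817 and 995 in control cells. The log2 fold change was 0.58 ± 0.099 (SE), and limma's adjusted p = 6.65e-05. Pkp3 read 1005, 1116 and 1107 in knockdown cells, against 814, 839 and 657 in control cells, with a log2 fold change of 0.49 ± 0.098. For both genes the groups did not overlap, and background subtraction took limma's adjusted p to 0.0503 for Pkp1 and 0.0741 for Pkp3. Fewer genes in all were called with background subtracted. Over all settings the log2 fold change ran from 0.50 to 0.68 for Pkp1 and from 0.32 to 0.56 for Pkp3.

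Pkp2 read 2899, 2875 and 2491 in knockdown cells, against 2418, 2320 and 2157 in control cells. The groups were separated by a small gap, and the log2 fold change of 0.26 ± 0.091 (SE) was close to the threshold (limma's adjusted p = 0.0412). Leaving out knockdown replicate 1 or 2 or control replicate 2 or 3 took it to between 0.0785 and 0.157. The other 2 probes of Pkp2 gave larger changes, 0.50 and 0.53, and both were called. Pkp4, a plakophilin relative also found in adherens junctions, read 4363, 3773 and 3995 in knockdown cells, against 4546, 4807 and 4703 in control cells. Its log2 fold change of -0.21 had limma's adjusted p = 0.0895. Jup, plakoglobin, which is shared by desmosomes and adherens junctions, was not called, with a 95% interval from -0.25 to 0.16.

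The desmosomal cadherin above the limit was Dsg2, the desmoglein of simple epithelia. It read 1974, 1631 and 1674 in knockdown cells, against 1766, 1829 and 1700 in control cells, with a 95% interval of the log2 fold change from -0.20 to 0.18. The other 8, Dsg1a, Dsg1b, Dsg1c, Dsg3, Dsg4, Dsc1, Dsc2 and Dsc3, were neither above the limit nor called by limma, and 0 of the 9 had an unadjusted p under 0.05. The Dsg1 genes are close copies of each other, and their probes may not tell them apart.

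Of the connexins, Gja1 rose and Gjb2 was not above the limit. Gja1, connexin 43, read 17465, 17897 and 20125 in knockdown cells, against 12518, 13578 and 12454 in control cells. The groups did not overlap, and the log2 fold change was 0.52 ± 0.089 (SE), with limma's adjusted p = 7.07e-05. Epcam, an adhesion protein of epithelia that stabilises claudins, lay just above the limit, at 142 ± 5.87 in knockdown and 140 ± 18.8 in control cells (SD, n = 3). Cdh19 and Dsg4 were the members closest to the limit from below.

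**Figure D4:**
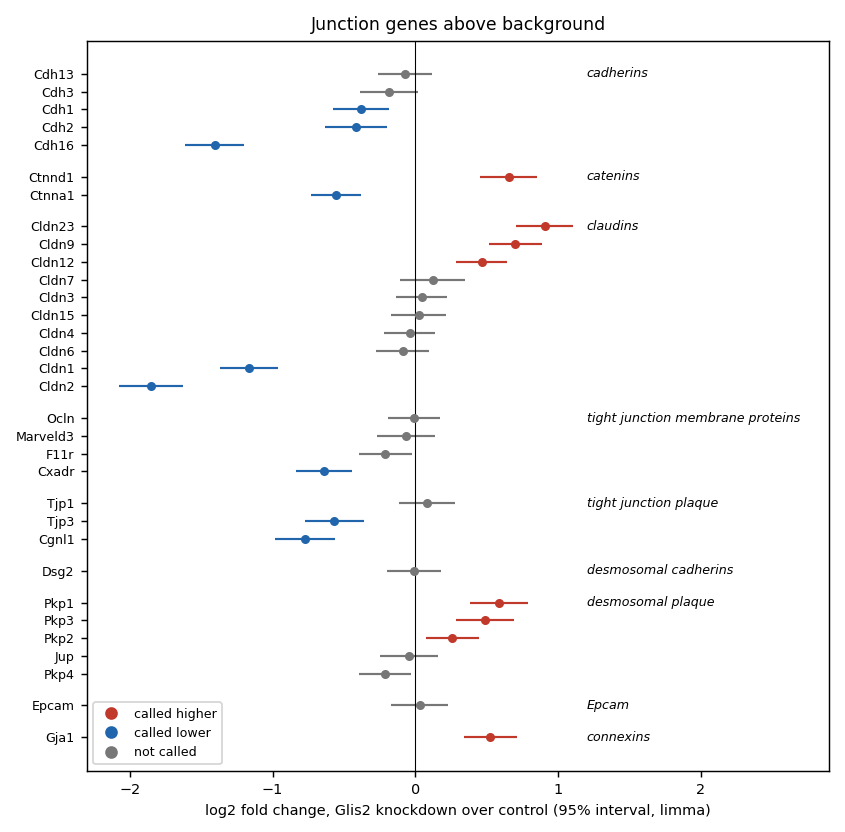
Log2 fold change of Glis2 knockdown over control (x axis) with its 95% interval from limma for the 32 junction genes above background, grouped by type. Cldn23 lies highest among the called genes at 0.90; the points of Cldn2 and Cdh16 are fitted values that rest on knockdown arrays under the limit.

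Several of these genes lie in stretches of chromosome where most genes moved one way. Of the members, 11 are on chromosome 18, and the 3 above background there were Ctnna1, Cdh2 and Dsg2. Among the 50 genes above background nearest to Ctnna1, 80% were lower in the knockdown, with a median log2 fold change of -0.43, beside -0.56 for Ctnna1. Around Cdh2 76% were lower, with a median of -0.21, and around Dsg2 the share was also 76% and the median -0.23, while Dsg2 itself was at -0.01. Ctnna1 and Cdh2 (-0.42) each lay below the median fold change of their neighbours. A further fit took the neighbours' median log2 level off each array, and that level can shift by another amount than the median fold change. In that fit Ctnna1 was at 0.08 and Cdh2 at 0.21, and neither was called (limma's adjusted p = 0.564 and 0.137). By contrast Cdh16, Cldn1, Cldn2, Cldn9, Cldn23, Cgnl1 and Cxadr, whose neighbours had medians between -0.14 and 0.01, kept their calls. The part of the chromosome pattern in the changes of Ctnna1 and Cdh2 was not tested further.

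**Figure D5:**
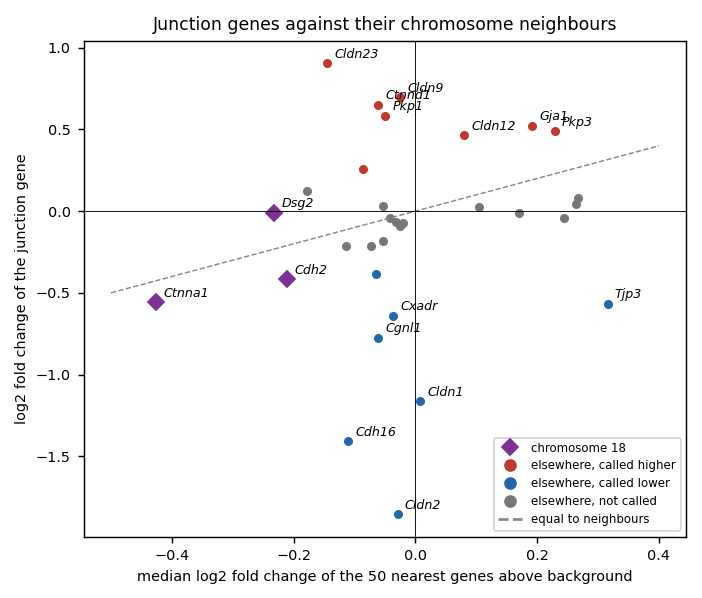
Log2 fold change of each junction gene above background (y axis) against the median log2 fold change of its 50 nearest genes above background on the chromosome (x axis); the dashed line marks equality. Ctnna1 and Cdh2 on chromosome 18 lie below 0 on both axes, whereas Cldn1 and Cldn2 fell with neighbours near 0 and Tjp3 fell with neighbours at 0.32.

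Partners of the junction proteins were read from 8 further lists with 121 measured genes, of which 15 rose and 18 fell, or 27.3%, beside the 22.5% over all genes. Among those above the limit 42.1% were called, beside 43.8% of all such genes. In the list of adherens junction linkers 1 of 14 rose and 5 fell, and 60% of those above the limit were called. Ctnnb1, beta-catenin, which joins cadherins to alpha-catenin, read 9260 ± 563 in knockdown and 16819 ± 2057 in control cells (SD, n = 3), a log2 fold change of -0.86. Lmo7, a linker between nectin and cadherin complexes, had -0.79, and Numb, an endocytic adaptor, had -0.50. Plekha7, which binds p120-catenin, rose by 0.44.

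Among polarity proteins and scaffolds 4 of 19 rose and 2 fell, and 35.3% of those above the limit were called. Pard6g, a PAR6 protein of the apical polarity complex, read 1618, 1346 and 1477 in knockdown cells, against 424, 399 and 433 in control cells. Its log2 fold change was 1.82 ± 0.091 (SE), although it lies on chromosome 18, where its neighbours had a median of -0.40. Llgl2, a basolateral polarity protein, rose by 0.89 and the basolateral scaffold Scrib by 0.41, while Dlg5 had -0.42. In the list of tight junction adapters and tricellular proteins 4 of 13 rose and 0 fell by limma (2 were lower at an unadjusted p under 0.05). Of those above the limit 36.4% were called, beside 43.8% of all such genes. Lsr, an angulin that recruits tricellulin to the corners where cells meet, read 954 ± 60.2 in knockdown and 535 ± 34.7 in control cells (SD, n = 3). Tjap1 rose by 0.60, Cldnd1 by 0.44 and Amotl2 by 0.29.

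Of the other connexins and pannexins, 3 of 16 lay above the limit and were not called, and Gjb6, which was called lower, was under the limit in both groups. In the wider cadherin superfamily 2 of 25 rose and 2 fell: Pcdh7 at 0.98, Celsr1 at 0.58, Pcdh19 at -0.81 and Celsr2 at -0.37. Of the desmosome partners 1 of 4 was called, the plaque protein Evpl at -0.30. Proteases and their inhibitors at junctions had 1 of 9 higher, Adam15 at 0.94, and 2 lower, Adam17 at -0.55 and the protease inhibitor Spint1 at -0.42. Of the genes above the limit, 50% were called in the cadherin superfamily list, 25% among desmosome partners and 37.5% among proteases and inhibitors. The share over all such genes was 43.8%.

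Transcription factors known to control junction genes moved both ways, with 3 of 21 higher and 5 lower, or 38.1% of the list beside 22.5% of all genes. Above the limit the share was 53.3%, beside 43.8%. Tcf4, an E-box factor on chromosome 18, read 961 ± 158 in knockdown and 2309 ± 193 in control cells (SD, n = 3), a log2 fold change of -1.27 beside a neighbours' median of -0.35. Twist2 had -0.62, Klf4 -0.56 and Tcf3, another E-box factor, 0.45. Snai2, known as a repressor of E-cadherin, was lower in the knockdown at 134, 139 and 150, against 182, 216 and 184 in control cells. Only 1 of its knockdown arrays lay above the limit. Snai1, of the same list, went the other way at 0.24 and was not called. Zeb1, Zeb2 and Twist1 were not called either. Snai2 was the fifth called factor of the list by p and is named here after its values were seen.

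Other markers moved beside the junction genes. The summed intensity of the 10 proximal tubule markers was 1387 to 1595 in knockdown and 10947 to 12501 in control cells, a difference carried by Aqp1 and Mme. The 9 general epithelial markers summed to 103346 to 105014 in knockdown and 79946 to 84611 in control cells, with the keratins Krt8, Krt18 and Krt7 higher and Spint1 lower. Of the endothelial markers 1 of 7 lay above the limit, Egfl7, which was higher at 0.46 on the log2 scale, and Pecam1, Kdr, Tie1 and Tek did not. Their sum was 1221 to 1327 in knockdown and 1082 to 1128 in control cells. Of the fibroblast markers 1 of 8 did, Dcn, which was lower at -0.98, while Col1a2, under the limit on average, was called higher at 0.26 and Pdgfra, Pdgfrb, Col1a1 and Col3a1 were under the limit. Their sum was 950 to 998 in knockdown and 1072 to 1107 in control cells. Of the leukocyte markers 1 of 5 did, Csf1r, which read 218, 277 and 265 in knockdown and 189, 166 and 205 in control cells and was called higher, and Ptprc did not. Their sum was 662 to 742 in knockdown and 645 to 663 in control cells. The podocyte markers Synpo and Podxl were higher, at 0.42 and 0.39, and Nphs1 was under the limit; the 3 summed to 1577 to 1642 in knockdown and 1207 to 1321 in control cells. Of the 7 markers of the distal nephron and collecting duct, 3 lay above the limit and 0 were called by limma (0 had an unadjusted p under 0.05), with a sum of 1840 to 2024 in knockdown and 1969 to 2083 in control cells. Each sum includes the background of its genes, also of those under the limit. The part of these markers in the junction results was not tested.

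By distance between profiles over the 6 arrays, with each gene centred on its mean, the 5 genes most like Cdh16 among 9481 above background were Sqor, Xist, Mylk, Klf9 and Tfcp2l1. Their distances ran from 0.118 to 0.200 on the log2 scale. The 5 most like Cldn1 were Akr1b8, Lmnb1, Ocrl, Wdr33 and Glrx, at 0.185 to 0.235.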

How the data were processed

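The 6 arrays hold RNA of 3 Glis2 knockdown and 3 control samples, grouped by their titles. The authors deposited a linear intensity for each probe and array, after a normalization that no label describes. All arrays shared 1 distribution, and background had not been subtracted (lowest intensity 85.4). The number of arrays limits the precision.

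Intensities were put on the log2 scale with a floor of 16 that no value reached. Of 45281 probes, 34885 had 1 gene symbol in GEO's platform annotation, 18 several and 10378 none. By Entrez identifier 34807 matched a RefSeq table of GRCm38.p6, used for names, chromosomes and neighbours; the array's build is not given. The brightest probe stood for each gene. Groups were compared with limma 3.58.1 in R 4.3.3 (lmFit, eBayes without trend) over all 19057 genes, with Benjamini-Hochberg adjustment at 0.05, after a test on simulated data. Each SE and p-value uses the gene's variance after eBayes drew it toward a value common to all genes. Other probes were fitted over all probes.

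The members, lists and tests were chosen with earlier results of these data known. Members above the background limit or called are named with values, as are up to 4 called genes of each partner list by smallest p. A fold against a group wholly under the limit uses the limit in its place. Replicate numbers did not pair the samples: deviations of same-numbered arrays correlated at -0.094, -0.039 and -0.040 over 9481 genes. Alternatives changed the normalization, floor, offset, background correction, dim-gene filter, probe rule, variance model and neighbour level, added a replicate block, or left out 1 array.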

Additional observations from a re-analysis of the deposited data

How the results depend on the processing

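Of the 18 called junction genes, 9 kept their direction and their call under all 18 alternatives planned at the start: Cdh16, Cldn1, Cldn2, Cldn9, Cldn12, Cldn23, Cgnl1, Cxadr and Gja1, although Cgnl1 lost its call with the probe rule added later. Leaving out each array in turn kept the calls of 16, the exceptions being Cdh2 and Pkp2, and gave 7 to 8 members higher and 9 to 10 lower, 3 to 4 cadherins and 2 to 3 desmosomal plaque genes called, 31 to 35 partner genes and 3754 to 3984 genes in all. With the replicate block, 8 members were higher and 10 lower, as without it, with 34 partner genes and 4130 genes in all; the numbers did not pair the samples. Background subtraction gave 5 members higher and 6 lower, with 1 cadherin, 1 tight junction plaque gene and 0 desmosomal plaque genes called by limma (4 of the 5 had an unadjusted p under 0.05), and 2633 genes in all. Normexp correction gave 2 cadherins, 21 partner genes and 2567 genes in all, and the mean of probes gave 1 catenin. Relative to neighbouring genes, 7355 genes were called, among them 26 members higher, 14 claudins, 9 desmosomal cadherins, 1 catenin and Epcam (1). That count includes genes under the background limit. The setting takes off the neighbours' median level, and the shift of that level can differ from their median fold change. Dsg2, well above the limit, went to 0.61 beside a neighbours' median log2 fold change of -0.23. The signs of Ctnna1 (0.083) and Cdh2 (0.21) turned under this setting, and neither was called there. Yet both had lain below the median fold change of their neighbours. Dsg2 (0.61), Cldn3 (-0.39) and Tjp1 (-0.27), not called in the main fit, changed sign and were called. Cldn4 (-0.46), Cldn7 (0.48) and Epcam (0.31) also passed the threshold. An offset of 50 brought Pkp4 past the threshold (-0.21). The next brightest probe, an alternative chosen after seeing the data, did not call Cdh1 (-0.16), Cgnl1 (-0.22) or Tjp3 (-0.15). The cause of the changes between settings was not tested. Background is included in the intensities, so fold changes of genes near the limit are compressed.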
